A study of Homo sapiens with 5 samples.

Results

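The regions held by IRF3 and those held by Smad3 were compared in BT549 control cells transfected with polyI:C, as 2 peak lists from chromatin immunoprecipitation with sequencing (ChIP-seq). The IRF3 list held 4125 peaks and the Smad3 list 786, together 4911 of the 19372 peaks in the 5 lists of the study. A peak counted as shared when it had at least 1 base in common with a peak of the other list. BT549 is a human breast cancer line of the basal-like type, and both libraries came from cells that stably carried the HA control insert from a lentiviral vector. The IRF3 cells received polyI:C, a synthetic double-stranded RNA, and no TGF-beta. The Smad3 cells received polyI:C and TGF-beta (1 ng/ml for 1.5 h). No source used here gives the time after transfection. The other 3 lists, used below for scale, are Smad3 in HA cells after mock transfection and TGF-beta, and IRF3 and Smad3 in cells with constitutively active Smad3 (caSmad3) given polyI:C and no TGF-beta. Each group is 1 library of 1 line, so no difference has a replicate check and no test was made. The effects of the antibody, of TGF-beta and of the single libraries on a difference between the 2 lists cannot be told apart. Depth is unknown, and the absence of a peak from a list does not measure absence of binding.

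IRF3 is a transcription factor that sensors of viral RNA switch on through phosphorylation, after which it enters the nucleus and binds interferon-stimulated response elements at interferon beta and antiviral genes. Smad3 is phosphorylated by the activated TGF-beta receptor, joins Smad4, and binds short Smad boxes together with partner factors such as AP-1 at genes of growth arrest, matrix and migration. The study's design text names an inhibitory effect of polyI:C that active Smad3 was meant to rescue, and the comparison asks which regions the factors hold in common.

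The promoters on which results below turn are shown first, because they let the peak of each factor be set against known binding letters. They belong to 9 of the 57 promoter windows (of 52 genes) that met a peak of both factors outside genes for structural RNAs and histones. A window runs from 250 bases before to 50 bases after a RefSeq transcript start (GRCh38.p14, the coordinates of hg38), and the 250 bases before the start are printed, read 5′ to 3′ on the gene's strand. Capitals mark the core of the interferon-stimulated response element (GAAANNGAA), the AP-1 site (TGANTCA), the cAMP response element or CRE (TGACGTCA), the Smad box (CAGAC) and the GC-rich Smad site (GGCGCC), searched on both strands. None of these motifs contains another. ISG15, ISG20 and PLSCR1 are the interferon genes with a shared pair of peaks, GADD45B and FOS stand for the TGF-beta and immediate early genes, and the rest show a CRE or Smad boxes.
ISG15 promoter (chr1:1013247-1013496, plus strand): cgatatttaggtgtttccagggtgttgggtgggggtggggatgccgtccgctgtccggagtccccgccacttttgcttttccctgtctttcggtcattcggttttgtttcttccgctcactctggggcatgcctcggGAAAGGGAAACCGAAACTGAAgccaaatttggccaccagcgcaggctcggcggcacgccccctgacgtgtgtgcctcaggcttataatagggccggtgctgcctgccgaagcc
ISG20 promoter (chr15:88638766-88639015, plus strand): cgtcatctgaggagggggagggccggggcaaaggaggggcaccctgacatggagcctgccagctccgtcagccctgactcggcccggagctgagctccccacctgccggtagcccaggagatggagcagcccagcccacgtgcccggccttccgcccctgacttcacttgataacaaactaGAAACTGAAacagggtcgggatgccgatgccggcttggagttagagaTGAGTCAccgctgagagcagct
PLSCR1 promoter (chr3:146544608-146544857, minus strand): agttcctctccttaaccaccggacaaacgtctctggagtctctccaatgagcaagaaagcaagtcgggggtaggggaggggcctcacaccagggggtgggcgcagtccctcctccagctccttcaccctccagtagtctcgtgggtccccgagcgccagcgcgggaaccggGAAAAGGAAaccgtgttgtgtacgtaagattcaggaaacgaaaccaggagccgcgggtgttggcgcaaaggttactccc
GADD45B promoter (chr19:2475877-2476126, plus strand): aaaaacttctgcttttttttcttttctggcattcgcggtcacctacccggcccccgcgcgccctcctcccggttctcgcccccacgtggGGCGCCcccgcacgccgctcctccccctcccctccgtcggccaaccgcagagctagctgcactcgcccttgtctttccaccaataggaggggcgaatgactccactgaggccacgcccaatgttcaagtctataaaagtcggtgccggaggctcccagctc
FOS promoter (chr14:75278578-75278827, plus strand): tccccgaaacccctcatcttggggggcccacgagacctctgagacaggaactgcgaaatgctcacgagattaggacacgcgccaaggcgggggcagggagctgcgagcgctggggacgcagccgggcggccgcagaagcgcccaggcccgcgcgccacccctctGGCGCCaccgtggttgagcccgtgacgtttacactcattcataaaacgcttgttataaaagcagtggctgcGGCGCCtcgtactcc
CCNL1 promoter (chr3:157160148-157160397, minus strand): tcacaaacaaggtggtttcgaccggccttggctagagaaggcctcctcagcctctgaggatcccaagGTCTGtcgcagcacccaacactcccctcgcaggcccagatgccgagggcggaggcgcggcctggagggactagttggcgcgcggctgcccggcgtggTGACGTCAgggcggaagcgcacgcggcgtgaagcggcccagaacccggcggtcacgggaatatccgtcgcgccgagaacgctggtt
ABCE1 promoter (chr4:145098061-145098310, plus strand): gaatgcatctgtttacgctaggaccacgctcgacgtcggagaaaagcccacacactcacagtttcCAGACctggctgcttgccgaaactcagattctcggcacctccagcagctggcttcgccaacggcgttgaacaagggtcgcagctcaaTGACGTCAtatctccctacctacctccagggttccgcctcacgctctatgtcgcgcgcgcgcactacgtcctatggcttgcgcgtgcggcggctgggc
CCDC80 promoter (chr3:112641144-112641393, minus strand): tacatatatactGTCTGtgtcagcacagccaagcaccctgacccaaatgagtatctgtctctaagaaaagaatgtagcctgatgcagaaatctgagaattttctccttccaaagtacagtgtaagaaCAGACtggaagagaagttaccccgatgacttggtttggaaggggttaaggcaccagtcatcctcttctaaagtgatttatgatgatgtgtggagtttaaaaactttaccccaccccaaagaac
RPS6 promoter (chr9:19380237-19380486, minus strand): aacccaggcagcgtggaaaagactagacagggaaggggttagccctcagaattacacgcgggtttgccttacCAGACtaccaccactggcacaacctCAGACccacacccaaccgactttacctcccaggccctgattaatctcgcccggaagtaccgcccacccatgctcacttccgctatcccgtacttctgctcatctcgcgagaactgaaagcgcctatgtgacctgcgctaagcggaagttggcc

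Most Smad3 peaks lay apart from IRF3 peaks, and those that met them were divided between genes for structural RNAs and histones, ends of protein-coding genes, and regions away from both. Of 786 Smad3 peaks, 245 overlapped an IRF3 peak, or 31.2% (95% Clopper-Pearson interval 27.9% to 34.5%, which covers counting error only). From the other side, 231 of 4125 IRF3 peaks were shared, or 5.6% (4.92% to 6.35%). Both shares describe the same pairs and differ because the lists differ in length. A share of 51% of the shared Smad3 peaks (125 of 245) lay within 1 kb of a gene for rRNA, snRNA, tRNA, snoRNA or a histone, whereas such loci held 16.4% of all Smad3 peaks. Without these loci 120 of 657 Smad3 peaks were shared, or 18.3% (15.4% to 21.4%), and 119 of 3898 IRF3 peaks, or 3.05% (2.54% to 3.64%).

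At the structural RNA and histone genes nearly every Smad3 peak was shared. There 125 of 129 Smad3 peaks overlapped an IRF3 peak, or 96.9% (92.3% to 99.1%), against 112 of 227 IRF3 peaks, or 49.3% (42.7% to 56%). All 27 Smad3 peaks at rRNA genes, which encode the RNA of the ribosome, were shared, as were 50 of 53 at snRNA genes, whose RNAs mostly form the spliceosome. At histone genes 36 of 37 Smad3 peaks were shared, at snoRNA genes 10 of 10 and at tRNA genes 2 of 2. IRF3 covered these classes more unevenly, with 25 of 35 peaks shared at rRNA genes, 49 of 68 at snRNA genes, 25 of 59 at histone genes, 11 of 44 at snoRNA genes and 2 of 21 at tRNA genes. The tRNA genes thus had 21 IRF3 peaks and few Smad3 peaks, while the rRNA and snRNA genes had both.

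**Figure D1:**
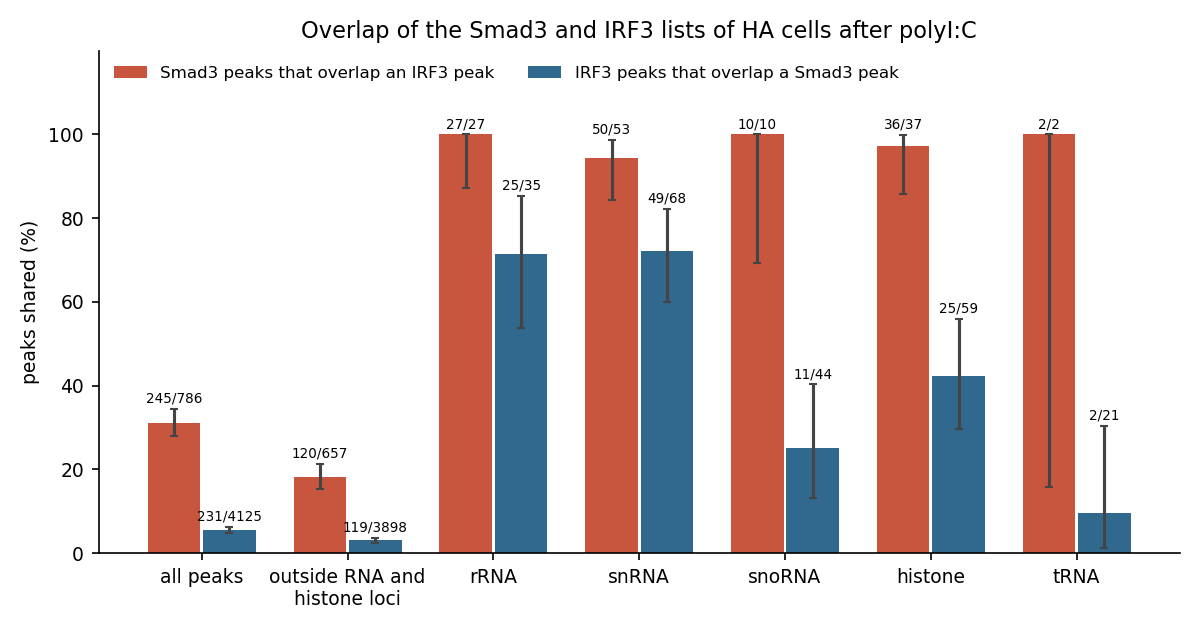
Percentage of the peaks of each list that overlap a peak of the other list (vertical axis), for all peaks, for peaks outside RNA and histone loci, and by class of locus; error bars are 95% Clopper-Pearson intervals and the fractions give shared over all peaks. The share of Smad3 peaks falls from 31.2% to 18.3% outside these loci, and within them it lies above 90% in every class.

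The widest shared peaks fell on multi-copy genes. The Smad3 peak at the 18S rRNA gene RNA18SN1 was 1891 bases wide (chromosome 21, 8436861 to 8438751) and lay inside an IRF3 peak of 1936 bases. Copies of the same gene, RNA18SN3 and RNA18SN2, had Smad3 peaks of 1771 and 1761 bases. The U1 snRNA genes RNU1-2, RNU1-3 and RNU1-1 on chromosome 1 had Smad3 peaks of 1033, 985 and 847 bases. The U3 snoRNA genes SNORD3A, SNORD3D and SNORD3B-1 on chromosome 17 had Smad3 peaks of 966, 907 and 907 bases, and RNU5E-1, a U5 snRNA gene, had 857 bases. All of these 10 regions had a peak in all 5 lists. Reads of near-identical copies cannot be assigned to 1 copy with certainty, so the copies are not separate findings. Among histone genes, named after their values were seen, the widest shared Smad3 peaks were at H4C15 (526 bases), H2AC21 (419 bases) and H1-5 (417 bases), each inside an IRF3 peak of 849, 1168 and 1055 bases.

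Copies of these genes also remained among the shared peaks counted as outside the loci. Of the 20 widest shared Smad3 peaks there, 7 lay on the first 10 Mb of chromosome 21, some of them within 1 kb of pseudogene copies such as RNA18SP5, and 4 others lay beside the snRNA pseudogenes RNU1-28P (1139 bases), RNU1-27P (861 bases), RNU5A-8P (776 bases) and RNU5E-6P (398 bases). Leaving out pseudogene copies, other small RNA genes and that stretch of chromosome 21 removed 15 of the 120 peaks and left 105 of 638, or 16.5%. Other wide regions lay inside or between genes and away from gene ends. Their nearest protein-coding genes, with Smad3 peak widths, were FRMD4A (660 bases), TEX14 (578 bases), CROCC (550 bases) and SLC25A37 (450 bases). Next came RPS6KA1 (405 bases), ATAD2 (396 bases) and BCAS4 (388 bases). The nearest gene could be far from the peak, with 45593 bases between RPS6KA1 and its region. Each of these regions had a peak in the mock-transfected Smad3 list. The widest shared peak at a protein-coding gene's own end was at RPS6, which encodes a protein of the small ribosomal subunit. Its Smad3 peak spanned 431 bases and lay inside an IRF3 peak of 518 bases, and a peak was present there in all 5 lists.

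Outside RNA and histone loci the shared peaks lay at gene ends far more often than the Smad3-only peaks. A peak was placed at a gene end when its centre lay within 1 kb of either end of a protein-coding gene. That held for 62 of 120 shared Smad3 peaks, or 51.7% (42.4% to 60.9%), and for 55 of 537 Smad3-only peaks, or 10.2% (7.81% to 13.1%). IRF3-only peaks were at a gene end in 2938 of 3779 cases, or 77.7% (76.4% to 79.1%), and shared IRF3 peaks in 60 of 119, or 50.4% (41.1% to 59.7%). The shared regions thus stood between the unshared peaks of Smad3 and of IRF3. Shared peaks were defined by meeting an IRF3 peak, and 2998 of 3898 IRF3 peaks outside the loci were at gene ends. Their higher share at gene ends than that of Smad3-only peaks follows in part from that choice. Median distances to the nearest gene end were 142 bases for IRF3-only, 554.5 bases for shared Smad3 and 36823 bases for Smad3-only peaks. Smad3-only peaks lay inside a protein-coding gene but over 1 kb from its ends in 35.2% of cases, against 12.3% of IRF3-only peaks.

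**Figure D2:**
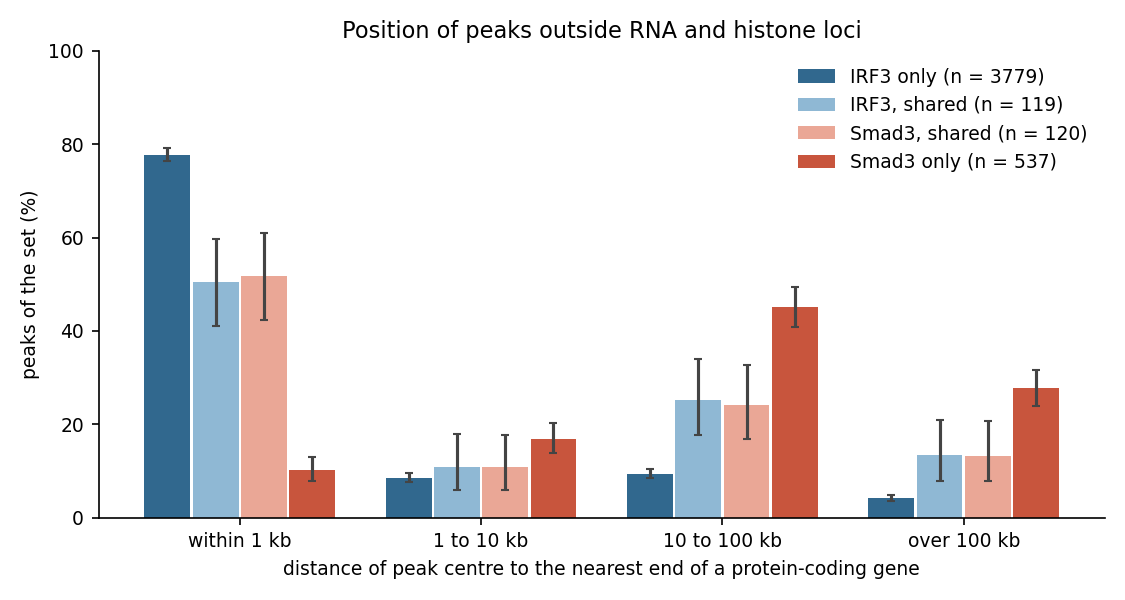
Percentage of peaks (vertical axis) by distance of the peak centre to the nearest end of a protein-coding gene (horizontal axis), outside RNA and histone loci, for IRF3-only, shared and Smad3-only peaks; error bars are 95% Clopper-Pearson intervals. IRF3-only peaks gather within 1 kb (77.7%), Smad3-only peaks between 10 and 100 kb (45.1%), and shared peaks are split.

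Read by position, the overlap differed between gene ends and the rest of the genome. Of 117 Smad3 peaks at gene ends, 62 were shared, or 53% (43.5% to 62.3%), and of 540 elsewhere 58 were shared, or 10.7% (8.26% to 13.7%). IRF3 showed the opposite order, with 60 of 2998 peaks shared at gene ends, or 2% (1.53% to 2.57%), and 59 of 900 elsewhere, or 6.56% (5.03% to 8.38%). IRF3 peaks lay mostly at gene ends and Smad3 peaks mostly elsewhere, so both orders follow in part from where each list lies. IRF3 listed many gene ends that Smad3 did not, while a Smad3 peak at a gene end was shared in about as many cases as not.

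Shared peaks were wider than unshared ones, above all for IRF3. Outside the loci the median width was 346 bases for shared and 178 bases for IRF3-only peaks, and 160 bases for shared and 142 bases for Smad3-only peaks. Of the 370 IRF3 peaks of 400 bases or more, 46 were shared, or 12.4%, against 1 of the 352 at the narrowest width of 99 bases. Of the 26 Smad3 peaks of 400 bases or more, 16 were shared, or 61.5%, against 14 of 83 at 99 bases, or 16.9%. Between these widths the shares were 14.4% (56 of 390) and 21.5% (34 of 158), so the rise lay mainly in the widest class. The 16 peaks included some at copies of RNA genes that the loci did not cover. Among them were those at RNA18SP5 (1159 bases), RNU1-28P (1139 bases), RNU1-27P (861 bases) and RNU5A-8P (776 bases). Shares by width without such copies were not computed for either factor. A wider peak also has more bases in which to meet another, and the part of width in these shares was not tested.

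Within a shared pair the Smad3 peak was usually the narrower one and close to the middle of the IRF3 peak. Outside the loci there were 122 pairs, in which IRF3 was wider in 95, or 77.9%, and the Smad3 peak lay wholly inside the IRF3 peak in 57, or 46.7%. The centres were a median of 62.25 bases apart (quartiles 29.75 and 118.5), and 82 of 122 pairs had centres within 100 bases. A pair must share a base, so small distances between centres follow in part from the overlap rule. IRF3 peaks were also the wider ones among unshared peaks outside the loci, with medians of 178 bases against 142 for Smad3. In 58 pairs within 1 kb of a transcript start, the Smad3 centre lay at a median of -25 bases (quartiles -165 and 20) and the IRF3 centre at 13 bases (-104.5 and 52.25), with negative values upstream. The start itself was inside the IRF3 peak in 42 pairs and inside the Smad3 peak in 26.

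Peaks that were not shared were mostly far apart. Of the 537 Smad3-only peaks outside the loci, 34 lay within 1 kb of an IRF3 peak, or 6.33%, and 60 within 10 kb, or 11.2%. Their median gap to the nearest IRF3 peak was 171647 bases. The gap of IRF3-only peaks to the nearest Smad3 peak had a median of 1128726 bases, in a comparison where Smad3 had the shorter list.

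Near interferon genes IRF3 peaks were more frequent than Smad3 peaks, as they were over all protein-coding genes. A gene counted as near a peak when the peak lay within 10 kb of either end, which held for 22.5% of all 20037 protein-coding genes with IRF3 and 1.8% with Smad3. Both factors were near 1.27% of genes, and an overlapping pair was near 0.933%. Of 20 direct IRF3 targets, 13 were near an IRF3 peak, and 2 of these, ISG15 and ISG20, also had a Smad3 peak that overlapped it. Of 52 interferon-stimulated and antiviral genes, 28 were near an IRF3 peak and 2 near a Smad3 peak, of which PLSCR1 had an overlapping pair and IRF2 did not. The Smad3 shares of these lists, 10% and 3.85%, were not below the 1.8% of all genes, and each rests on 2 genes.

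ISG15 encodes a ubiquitin-like protein that is joined to other proteins during the antiviral response. Its IRF3 peak (chromosome 1, 1013056 to 1013805) was 750 bases wide and its Smad3 peak (1013427 to 1013781) 355 bases, inside the IRF3 peak. The centres lay on either side of the start, IRF3 at -66 and Smad3 at 107 bases. All 3 matches to the interferon response core, which overlap each other at 113, 107 and 101 bases before the start, were in the IRF3 peak and outside the Smad3 peak. In caSmad3 cells the IRF3 peak was 309 bases wide, and neither of the other Smad3 lists had a peak within 10 kb of this gene.

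ISG20 encodes an exonuclease that degrades RNA. Its IRF3 peak (chromosome 15, 88638811 to 88639143) was 333 bases wide, and the Smad3 peak (88638750 to 88638867) was 118 bases wide and shared 57 bases with it. The interferon response core 69 bases and the AP-1 match 22 bases before the start both lay in the IRF3 peak and outside the Smad3 peak. No peak of the other 3 lists was within 10 kb of ISG20. PLSCR1 encodes a membrane protein with antiviral roles. Its IRF3 peak (chromosome 3, 146544381 to 146544808, 428 bases) met a Smad3 peak of the smallest width, 99 bases, by 10 bases. The interferon response core 79 bases before its start was again in the IRF3 peak alone. The interferon pairs therefore ranged from full inclusion at ISG15 to contact at the edge at PLSCR1.

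**Figure D3:**
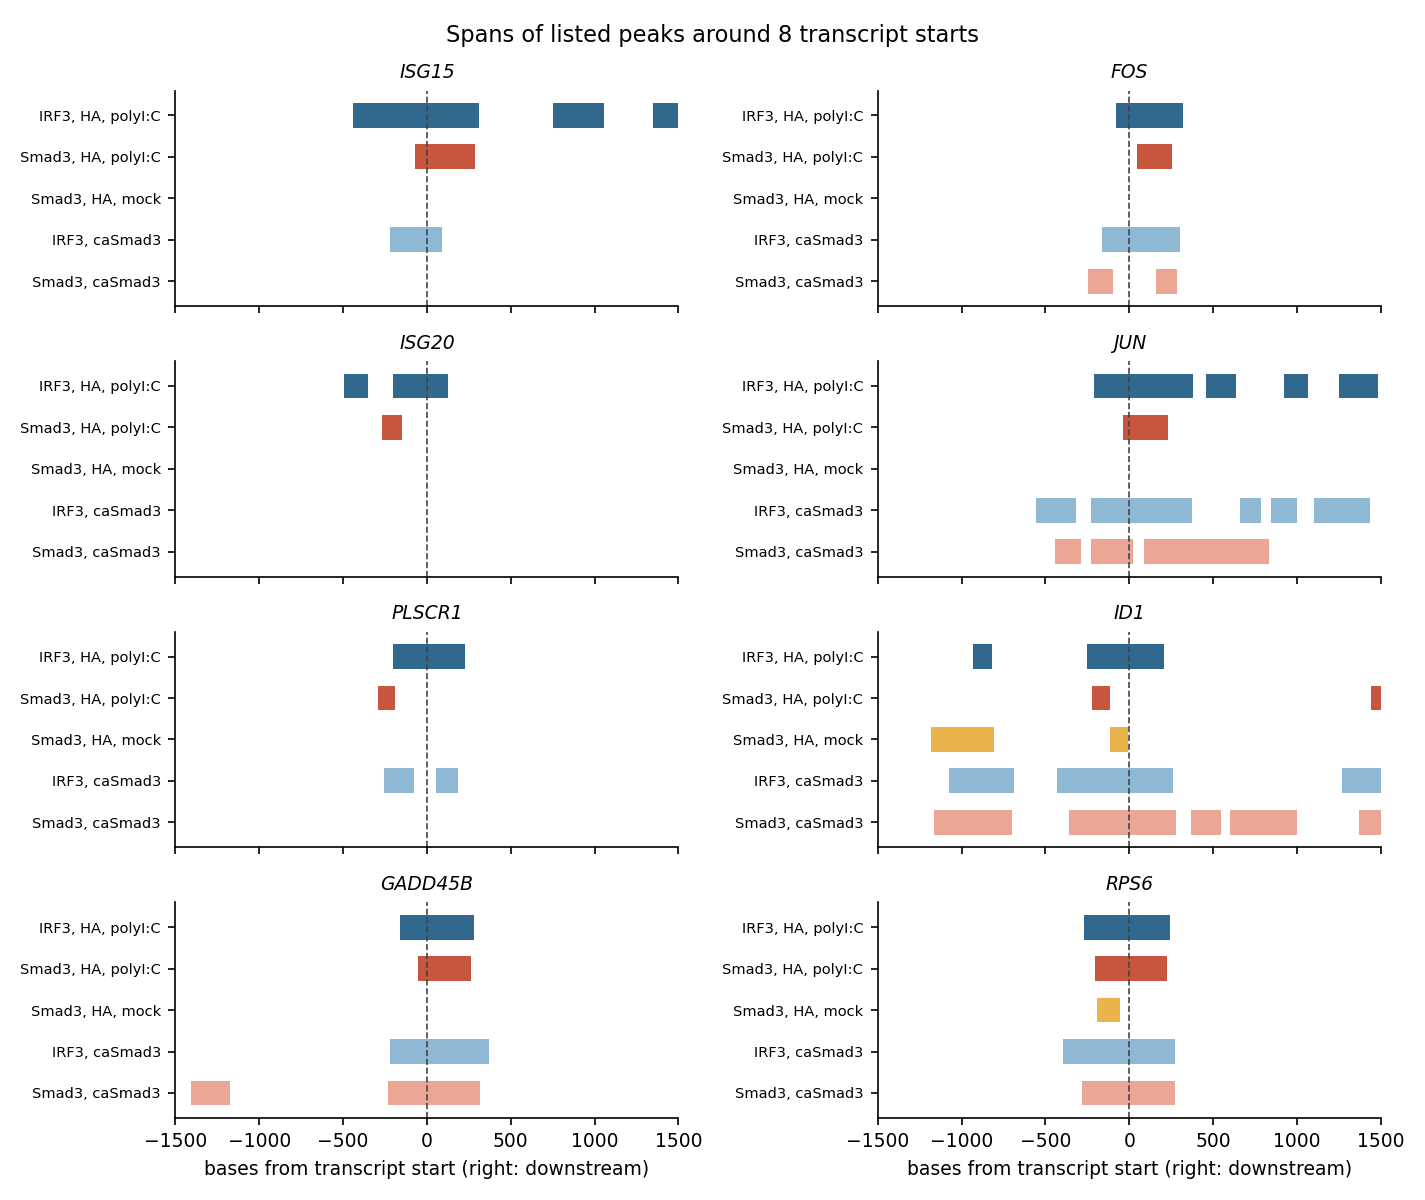
Spans of listed peaks around 1 transcript start of each of 8 genes, in bases from the start (horizontal axis, positive values downstream), with 1 row for each of the 5 libraries; bars are peak spans and carry no height. At ISG15, GADD45B, FOS, JUN, ID1 and RPS6 a Smad3 peak of polyI:C-treated HA cells lies inside an IRF3 peak of that line after polyI:C. At ISG20 and PLSCR1 the Smad3 peak lies across the upstream edge of the IRF3 peak. Only the Smad3 cells had received TGF-beta.

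Of the 13 direct targets near an IRF3 peak 11 had no Smad3 peak, and 7 of the 20 were near neither. Over all protein-coding genes, 4259 of the 4513 near an IRF3 peak had no Smad3 peak, so this state was not particular to the targets. IRF3 without Smad3 was the state of 21.3% of all protein-coding genes, of 11 of the 20 direct targets and of 26 of the 52 interferon-stimulated genes. The widest of these peaks was at IFIT2 (2071 bases), whose protein binds viral RNA, followed by the chemokine gene CCL5 (762 bases), IFIT3 (655 bases) and IFIT1 (627 bases). At IFNB1, the interferon beta gene, there were 6 IRF3 peaks (the widest of 354 bases) and no Smad3 peak within 10 kb. Among interferon-stimulated genes the widest were at DDX60 (654 bases), the RNA sensor RIGI (618 bases), IFI6 (511 bases) and TRIM25 (496 bases). Antigen presentation genes had IRF3 in 11 of 18 cases, led by B2M (582 bases), the light chain of class I molecules, and Smad3 in 0 of 18. With 18 genes a count of 0 allows a share of up to 16.7%, so the absence of Smad3 there was not distinguishable from the background of 1.8%.

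The NF-kB and inflammatory genes also had IRF3 often, near 15 of 24, and Smad3 near 1, the neutrophil chemokine gene CXCL1. As shares these are 62.5% and 4.17%, beside 22.5% and 1.8% of all protein-coding genes, and the Smad3 share rests on 1 gene. CXCL1 (chromosome 4) had IRF3 peaks of 1313, 650 and 391 bases running from the gene to beyond its end. Its Smad3 peak (73871811 to 73872180) was 370 bases wide and lay 53 bases from the nearest IRF3 peak, with no base in common. The IRF3-only members included CXCL2 (759 bases), the inhibitor gene NFKBIA (408 bases) and CXCL8 (320 bases).

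TGF-beta/Smad target genes had Smad3 in 25% of cases, against 10% of the direct IRF3 targets and 3.85% of the interferon-stimulated genes. Of 44 TGF-beta/Smad target genes, 11 were near a Smad3 peak, 19 near an IRF3 peak and 6 near both. Overlapping pairs were present at 4 of them. As shares these are 25%, 43.2%, 13.6% and 9.09%, beside 1.8%, 22.5%, 1.27% and 0.933% of all protein-coding genes. At GADD45B, a stress and TGF-beta response gene on chromosome 19, the Smad3 peak (2476075 to 2476391, 317 bases) lay inside the IRF3 peak (2475964 to 2476408, 445 bases). CCN1, which encodes a secreted matrix protein, had 7 IRF3 peaks along the gene, and its Smad3 peak of 179 bases shared 169 bases with 1 of them. JUNB, an AP-1 subunit gene, had 6 IRF3 peaks, and its Smad3 peak of 267 bases met the one at the far end of the gene. None of these 3 genes had a Smad3 peak in the mock-transfected list.

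The ID genes, which encode inhibitors of basic helix-loop-helix factors, differed among themselves. ID1 (chromosome 20) had 4 Smad3 peaks, of which the one of 105 bases lay inside the 462-base IRF3 peak at the start, while those of 341 and 315 bases, beyond the gene, met none. ID3 (chromosome 1) had an IRF3 peak of 470 bases at its start, and its Smad3 peaks of 553 and 121 bases did not meet it. The wider of these lay 2177 bases away. ID2 had an IRF3 peak of 459 bases at its start and no Smad3 peak. LTBP2, a latent TGF-beta binding protein gene, had an IRF3 peak beyond one end and a Smad3 peak beyond the other.

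Smad3 without IRF3 was found near 0.534% of all protein-coding genes and near 5 of the 44 TGF-beta/Smad targets. These were COL1A1, a collagen gene (265 and 99 bases), TGFBI (182 bases), the protease genes MMP2 (156 bases) and PLAU (135 bases), and the integrin gene ITGB6 (155 and 109 bases). In all 5 the peaks lay outside the gene itself. Of 30 TGF-beta pathway components 4 had IRF3 and 0 Smad3 (a count of 0 allows up to 10%), and of 34 mesenchymal and matrix genes 6 had IRF3 and 0 Smad3 (up to 8.82%).

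AP-1 and immediate early genes had Smad3 near 8 of 36 and both factors near 7, with overlapping pairs at FOS, JUN, IER2, IER3, MCL1 and TRIB1. As shares these are 22.2%, 19.4% and 16.7%, beside 1.8%, 1.27% and 0.933% of all protein-coding genes. At FOS, an AP-1 subunit gene, the Smad3 peak (chromosome 14, 75278876 to 75279081, 206 bases) was just inside the gene and within an IRF3 peak of 401 bases. JUN had 7 IRF3 peaks along the gene, and its Smad3 peak of 264 bases (chromosome 1, 58783819 to 58784082) lay over the start, inside the widest of them (594 bases). IER2 had a Smad3 peak of 139 bases inside an IRF3 peak of 514 bases, and MCL1, a survival gene, one of 159 bases inside 440 bases. ZFP36L1 had both factors 216 bases apart, and CSRNP1 had Smad3 alone. At FOS, JUN, IER2, IER3 and MCL1 the mock-transfected Smad3 list had no peak within 10 kb, whereas at TRIB1 it had one of 114 bases. The caSmad3 lists of both factors had peaks at all of these genes.

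Lists of genes for constant functions differed in their share with an overlapping pair. It was 22.6% of the translation, RNA and housekeeping genes, 6.67% of the cytosolic ribosomal protein genes and 5% of the stress genes. The TGF-beta/Smad targets stood at 9.09% and all protein-coding genes at 0.933%. Of 31 translation, RNA and housekeeping genes 28 had IRF3, 8 Smad3 and 7 an overlapping pair. The pairs were at the translation factor genes EIF1, EIF4A1 and EIF4A2, at POLR2A, UBB and the nuclear RNA genes MALAT1 and NEAT1. Their Smad3 peaks that overlapped IRF3 were 102 to 254 bases wide, and the IRF3 peaks 345 to 740 bases. Of 45 cytosolic ribosomal protein genes 43 had IRF3 and 3 had Smad3, all as pairs, at RPS6, RPL3 and RPL23. The pair at RPL3 lay at an RNA or histone locus. Counts of the gene lists include peaks at these loci, and shares of the lists without them were not computed. Among 20 stress genes 14 had IRF3 and 1, the chaperone gene DNAJB1, had a pair. The leukocyte marker CD68 was counted through the pair at its neighbour EIF4A1, with which it shares the peak.

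**Figure D4:**
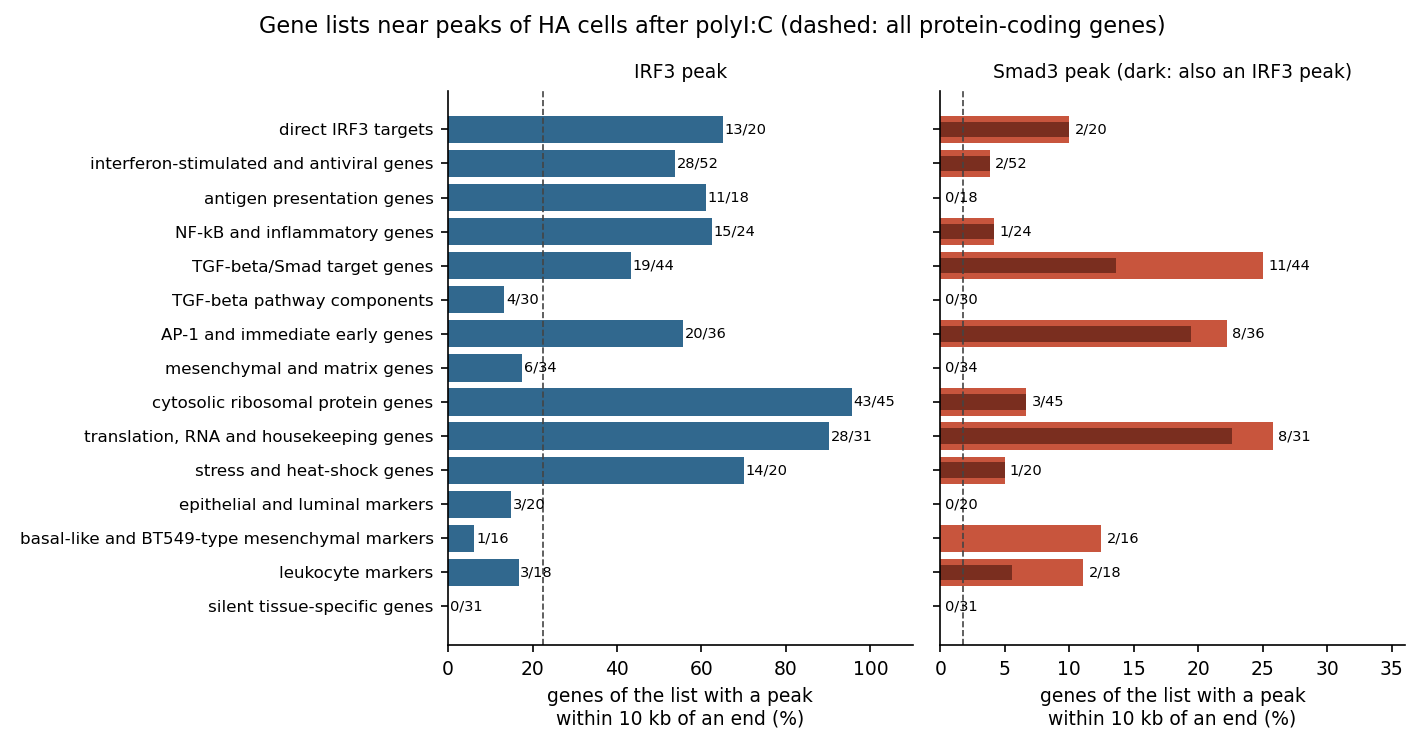
Percentage of the genes of 15 lists with an IRF3 peak (left) or a Smad3 peak (right) within 10 kb of a gene end; dark bars on the right are genes with both factors, fractions give genes counted over genes in the list, and dashed lines mark all protein-coding genes (22.5% and 1.8%). Smad3 reaches 25% of TGF-beta/Smad targets and 25.8% of translation, RNA and housekeeping genes, most of the latter with IRF3.

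Lists of silent genes and of cell type markers were read for scale. The 31 silent tissue-specific genes had 0 with either factor, which allows up to 9.68%. Of 20 epithelial and luminal markers 3 had IRF3 and 0 Smad3. Of 18 leukocyte markers 3 had IRF3 and 2 had Smad3, or 11.1%, which were CD68 through EIF4A1 and CSF1R with Smad3 alone. That share is about that of the direct IRF3 targets (10%), and both rest on 2 genes. Of 16 markers of basal-like and mesenchymal lines, the type of BT549, 1 had IRF3 and 2 had Smad3, AXL and CAV1, neither with IRF3. Peak lists do not measure expression and so cannot check the identity of the cells. Over all protein-coding genes 361 were near a Smad3 peak, and 254 of these were near an IRF3 peak as well, or 70.4% (65.4% to 75%). From the side of IRF3, 254 of 4513 genes were near Smad3, or 5.63%. Without peaks at RNA and histone loci, 179 genes (0.893%) were near both and 112 (0.559%) near an overlapping pair.

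The Smad box was about as frequent in promoters under both factors as in others, and the CRE was more frequent in these few windows. Shares are of windows from 250 bases before to 50 after the start. In the 57 windows under both factors the Smad box was present in 47.4% (34% to 61%), against 43.5% of 2543 windows under IRF3 alone and 44.8% of all 22199 windows. The GC-rich Smad site was in 21.1% (11.4% to 33.9%), against 30.2% under IRF3 alone and 24.3% of all windows. The AP-1 site was in 5.26% (1.1% to 14.6%), against 3.26% and 6.15%. The CRE was in 7 of 57 windows, or 12.3% (5.08% to 23.7%), against 4.88% under IRF3 alone and 2.26% of all. The windows are not independent: in the 250 bases before the starts there were 4 separate CRE matches, since divergent genes such as ABCE1 and ANAPC10, or SNX5 and MGME1, share one. At ABCE1 the CRE 98 bases before the start was in both peaks. At CCNL1 that at 86 bases was wholly in the IRF3 peak and lay across the edge of the Smad3 peak.

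The interferon response core was in 8 of 57 windows, or 14% (6.26% to 25.8%), against 8.06% under IRF3 alone and 7.09% of all. It had 9 matches at different positions in the 250 bases before the starts. Of these, 5 lay in the IRF3 peak, at ISG15, ISG20 and PLSCR1, and 2 in the Smad3 peak, at OGA and CFAP20. The 3 at ISG15 overlap each other and are 1 stretch of bases, so the 9 are not independent. Of 25 Smad box matches at different positions in the same bases, 13 lay in the IRF3 peak and 16 in the Smad3 peak. At CCDC80 the Smad box 123 bases before the start was in the Smad3 peak alone, and at RPS6 those at 178 and 153 bases were in both. The GC box (GGGCGGGG) was in 14% of windows under both factors and 33.7% of those under IRF3 alone, and the ETS site (CCGGAAGT) in 3.51% and 14.7%. These are matches of letters, which do not show that a factor binds there, and the windows with both factors are few.

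Most of the shared regions had a peak in the caSmad3 lists, and fewer of them had one in the mock-transfected list. Outside the loci 110 of 120 shared Smad3 peaks met a Smad3 peak of caSmad3 cells, or 91.7%, and 106 met an IRF3 peak of those cells, or 88.3%. Smad3-only peaks were also frequent in the Smad3 list of caSmad3 cells (440 of 537, 81.9%) but not in its IRF3 list (40 of 537, 7.45%). Shared peaks were defined by meeting an IRF3 peak, so their difference from Smad3-only peaks in another IRF3 list follows in part from that choice. IRF3-only peaks met the IRF3 list of caSmad3 cells in 3090 of 3779 cases, or 81.8%. The caSmad3 lists are also long, with 8067 IRF3 and 6041 Smad3 peaks. They share the antibodies of the lists compared here and are not independent of them in that respect.

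The mock-transfected Smad3 list, from cells without polyI:C, held 41 of 120 shared peaks, or 34.2% (25.8% to 43.4%), and 121 of 537 Smad3-only peaks, or 22.5% (19.1% to 26.3%). For both kinds the share in the mock list was lower at gene ends than elsewhere, with overlapping intervals for the Smad3-only peaks. Of shared peaks, 10 of 62 at gene ends were in it, or 16.1% (8.02% to 27.7%), and 31 of 58 elsewhere, or 53.4% (39.9% to 66.7%). Of Smad3-only peaks, 7 of 55 at gene ends were in it, or 12.7% (5.27% to 24.5%), and 114 of 482 elsewhere, or 23.7% (19.9% to 27.7%). The 120 shared peaks still included 15 at pseudogene copies, other small RNA genes or the first 10 Mb of chromosome 21. At RNA and histone loci 76 of 125 shared Smad3 peaks, or 60.8%, were in the mock list. Shares by position without the 15 peaks were not computed. The mock list was shorter (353 peaks), so the absence of a region from it does not show that polyI:C brought Smad3 there. Of the IRF3-only peaks 7 of 3779 were in the mock Smad3 list, or 0.185%, and 975 were in the Smad3 list of caSmad3 cells, or 25.8%.

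**Figure D5:**
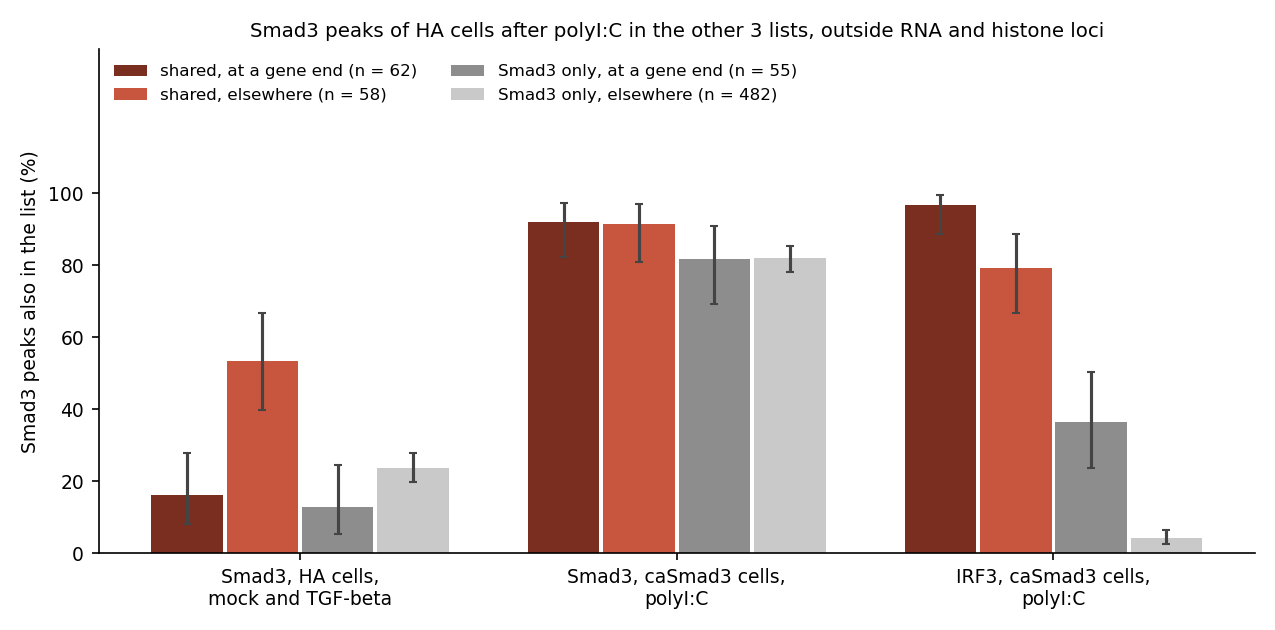
Percentage of the Smad3 peaks of HA cells after polyI:C (vertical axis) that overlap a peak of each of the other 3 lists, for shared and Smad3-only peaks at gene ends and elsewhere, outside RNA and histone loci; error bars are 95% Clopper-Pearson intervals. In the mock list the shared peaks elsewhere stand at 53.4% and those at gene ends at 16.1%, while all 4 sets are above 80% in the Smad3 list of caSmad3 cells. The shared peaks still include some at pseudogene copies of RNA genes.

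The overlap with this IRF3 list differed between the Smad3 lists over all peaks and was of about the same size outside RNA and histone loci. Over all peaks it was 37.7% (32.6% to 43%) for the mock-transfected list, 31.2% for the list after polyI:C and 21.7% (20.6% to 22.7%) for caSmad3 cells. Outside the loci 53 of 272 mock-transfected Smad3 peaks met an IRF3 peak of polyI:C-treated HA cells, or 19.5% (14.9% to 24.7%), and 1097 of 5777 Smad3 peaks of caSmad3 cells did, or 19% (18% to 20%). Both stand beside the 18.3% (15.4% to 21.4%) of the Smad3 list after polyI:C. These shares use the same IRF3 list and are not independent, and the Smad3 lists differ in length, TGF-beta and caSmad3. Set against the IRF3 list of caSmad3 cells, 146 of 657 Smad3 peaks of polyI:C-treated HA cells were shared, or 22.2%, in a list of 8067 peaks.

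Chromosomes 3, 8, 9 and 20 held 249 of the 657 Smad3 peaks outside the loci, or 37.9%, and 943 of the 3898 IRF3 peaks, or 24.2%. On them 39 of 249 Smad3 peaks were shared, or 15.7%, against 18.3% over all chromosomes outside the loci. With the loci included, leaving these chromosomes out gave 203 of 534 shared Smad3 peaks, or 38%, against 31.2% with them. The part of these chromosomes in the overlap of the whole genome was not tested further. Chromosome 21 stood apart, with 9 of 12 Smad3 peaks shared, all on its first 10 Mb.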

How the data were processed

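Each of 5 ChIP-seq libraries has 1 peak list that the authors deposited, with the chromosome, start and end of each peak in bases and no score, fold, p-value or read count. The submitters' processing notes name hg38, Bowtie2 2.2.2.6 and MACS2 2.1.0. For thresholds, input control and duplicate removal nothing is given in the sources. Lists belong to single libraries and were not pooled. Depth is unknown, and PCR reads are not independent molecules, so Clopper-Pearson 95% intervals cover counting error only.

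Groups came from the labels. Overlap needed at least 1 base. Loci were 1914 genes of a RefSeq table (GRCh38.p14) for rRNA, snRNA, tRNA, snoRNA and histones, with 1 kb on each side. That table gives gene ends without strand for 20037 protein-coding genes, and exons, introns and UTRs were not used. Strand and transcript starts came from RefSeq promoter sequences, which cover 79.1% of these genes. All 437 genes of 15 lists matched, and 12 motifs were searched. Peak sequences were not analysed here.

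Named genes are list members near Smad3, the widest shared and unshared peaks, and IRF3-only members of the first 4 lists as examples by width. Genes named for motif matches were chosen after their values were seen. Some genes that the rule selects are not reported here. Members and lists were chosen with earlier results of these data known. Other overlap rules, widths, loci, windows and chromosomes were tried. Counting was tested on simulated data. Python 3.11.15, pandas 2.3.3, numpy 2.4.6, scipy 1.17.1 and matplotlib 3.10.9 were used.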

Additional observations from a re-analysis of the deposited data

How the results depend on the processing

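Of 31 values under other settings, 16 moved by less than their criterion, 15 moved and 0 changed direction. No paired analysis was possible because each group holds 1 library and no test was made. Requiring 50% of both peaks left 126 shared Smad3 peaks in place of 245, and 48 in place of 120 outside RNA and histone loci. Keeping the wider 50% of each list left 142 and 48, with fewer peaks entering by construction. With 500 bases in place of 1 kb, the share at gene ends was 7.08% for Smad3-only and 72% for IRF3-only peaks, and with 5 kb it was 19.4% and 83.5%. With the ends of all genes of the table, which are more, it was 70.8% for shared Smad3, 22.9% for Smad3-only, 70.6% for shared IRF3 and 84.1% for IRF3-only peaks. With transcript starts, an alternative chosen after seeing the data, it was 69.9% for IRF3-only peaks. Genes near both factors numbered 137 within 1 kb and 731 within 50 kb, against 254 within 10 kb. The alternatives without the first 10 Mb of chromosome 21 (209 of 750 Smad3 peaks shared) and without pseudogene copies were also chosen after seeing the data. Unknown depth limits every statement that a region lacks a peak.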

Other observations

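Most of the 10 widest Smad3-only peaks were also in the list of mock-transfected cells. The widest, 741 bases, was 6835 bases from SNX5 on chromosome 20 (17934025 to 17934765), and the next were near TRIM67 (614 bases), inside PRDM16 (585 bases) and near CIMIP1 (581 bases). The next peaks by width were near ID3 (553 bases), near NANOS3 (487 bases) and inside RHOBTB2 (482 bases). Among the 10 widest, the one at RHOBTB2 was alone in having no peak in the mock-transfected Smad3 list, and all 10 had one in the Smad3 list of caSmad3 cells.

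The widest IRF3-only peaks mixed interferon genes with promoters of constant genes. Beside 2 peaks at IFIT2 (2071 and 1182 bases), CXCL1 (1313 bases), CCL5 (762 bases) and CXCL2 (759 bases), they included RFX3 (791 bases), PTPN23 (790 bases), TOP1 (776 bases) and the ribosomal protein gene RPL36AL (764 bases). The peaks at RFX3, PTPN23, TOP1, RPL36AL and CXCL1 met a peak in the IRF3 list of caSmad3 cells, and those at IFIT2, CCL5 and CXCL2 did not, although that list had 2 other peaks at CXCL2 (204 and 114 bases). These genes were picked by width, and the libraries are 1 of each kind.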
